A study of Mus musculus with 12 samples.

Results

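ATP-binding cassette (ABC) transporters are membrane proteins that use the energy of ATP to carry bile salts, lipids, conjugated toxins, drugs and peptides across membranes, and a few members of the family lack a membrane part and act on ribosomes instead. In the liver, hepatocytes place a set of them in the canalicular membrane, where they export the components of bile, and another set in the basolateral membrane, facing the blood. In stratified epithelia such as the esophagus they are known mainly as exporters of drugs and lipids. The members described here are all genes of the array whose symbol is Abc followed by a letter from a to g and a number. They number 46 of 16535 named genes, and 79 of 41174 probes, so that 22 of them had 1 probe, 15 had 2 and 9 had 3. The RefSeq gene table holds 50 such symbols, and those without a matched probe were not analysed here.

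Levels were measured on 12 single-colour arrays, 1 for the liver and 1 for the esophagus of each of 6 male mice about 8 months old on a mixed 129Sv/C57BL6 background. The 3 TG mice were Col1a1tetO-Nanog/+;Rosa26rtTA/+, with a doxycycline-inducible Nanog transgene at the Col1a1 locus and the rtTA activator at the Rosa26 locus, which is active in most cell types. The 3 CTR mice were Col1a1+/+;Rosa26rtTA/+ and carried the activator without the transgene. Both genotypes drank water with 7.5% sucrose and doxycycline at 0.2 mg/ml for 48 h, so no group was free of doxycycline or of the activator. RNA of the 2 organs was extracted with different kits, and organ and extraction cannot be told apart.

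A level below is the log2 signal of a probe after subtracting its array's 75th percentile, so 0 is the level that 75% of the probes stayed under. Each probe has its own brightness, and levels were compared between arrays, never between probes. The share of probes detected above background ran from 56.5% to 81.8%, with liver TG3 at the upper end, and probes near background read high there. Liver CTR3 was at the lower end, and its lowest signal above background was -3.97, against -5.65 to -4.61 on the other livers. For members named below as above background on only part of the CTR livers, CTR3 was among those not above it. The single Nanog probe was above background on 0 of the 12 arrays. In the livers the hepatocyte markers had summed levels of 11.8 to 12.2 and in the esophagi of -0.36 to 1.04, while stratified epithelium markers stood at 9.46 to 9.87 in the esophagi and at -0.04 to 1.19 in the livers, so that markers and labelled organ matched on each array. The clock transcript Per2 was low on livers CTR1 and TG2 (-1.60 and -1.73, against 0.66 to 1.27 on the 4 others) but on esophagi TG1 and TG2 (-2.92 and -2.46, against -0.73 to 0.26), so the organs of the animals TG1 and CTR1 did not match in it. An exchange of TG1 and CTR1 in either organ would put arrays under the wrong genotype. This was not tested, and the Nanog probe, not above background, cannot show it. Values for the genotype comparisons are given without the TG1 and CTR1 arrays too, where a named member rests on them.

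Of the 46 genes, 31 were above background on all 12 arrays with at least 1 probe and 14 on some arrays. Abca4, the retinal flippase, was above background on none. A gene is represented by the probe with the highest mean level over the 12 arrays, and each unnamed probe counts by itself; named genes and unnamed probes are together called units. A unit entered a comparison if, in 1 or both of its groups, its probe was above background on all 3 arrays, as it was for 39 members between the CTR organs. The 7 others were Abca4, Abca13, Abca14, Abca15, Abca17, Abcc10 and Abcc12.

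The 2 organs differed in most of the family. In CTR mice 31 of the 39 members tested passed (limma, Benjamini-Hochberg adjusted p under 0.05), 20 with higher signal in liver and 11 with lower, against 62.4% of all units tested (34.6% higher and 27.8% lower). In TG mice 31 of 38 members passed, 19 higher and 12 lower in liver, against 63.2% of all units (38.9% higher and 24.3% lower). When arrays were scaled by quantile normalization instead, the split among all called units in TG mice moved from 61.5% higher to 51.6% higher, while the members stayed at 19 and 12. Scaling by the array median gave 50.1% and a split of 15 and 12. The median liver-minus-esophagus difference of the members was 0.80 in CTR and 0.67 in TG mice on the log2 scale, beside 0.14 and 0.36 for all units tested. A member that was above background in 1 organ only could enter the test just through the organ where it was high. Where both groups had to be above background, 26 of 32 members passed in CTR mice, beside 63.8% of 17569 units, and 27 of 33 in TG mice, beside 62.4% of 19514.

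The CTR and TG comparisons share no array but come from 1 fit with a shared estimate of the spread, so their p-values are not independent. Tested in both were 38 members. In 29 of these the call was made in both genotypes, 19 higher and 10 lower in liver, and in 0 with opposite signs. Abcc8 passed in CTR mice only, as did Abcg3, which was not tested in TG mice. Abcb1a and Abcf1 passed in TG mice only. Whether these calls differ between the genotypes is the test of the genotype effect in esophagus minus that in liver, given further on, which none of these 4 passed. All arrays of liver lay above all arrays of esophagus for 21 of 39 members in CTR mice and below them for 11, beside 37% and 31.1% of all units (68.1% in either direction), and for 19 and 12 of 38 in TG mice, beside 44.3% and 26.8% (71.1%). Within each slide that held both organs of 1 genotype, all 31 called members kept their sign, as any member whose organs do not overlap must. In whole-organ RNA, fewer cells of a type and less RNA per cell cannot be told apart.

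**Figure D1:**
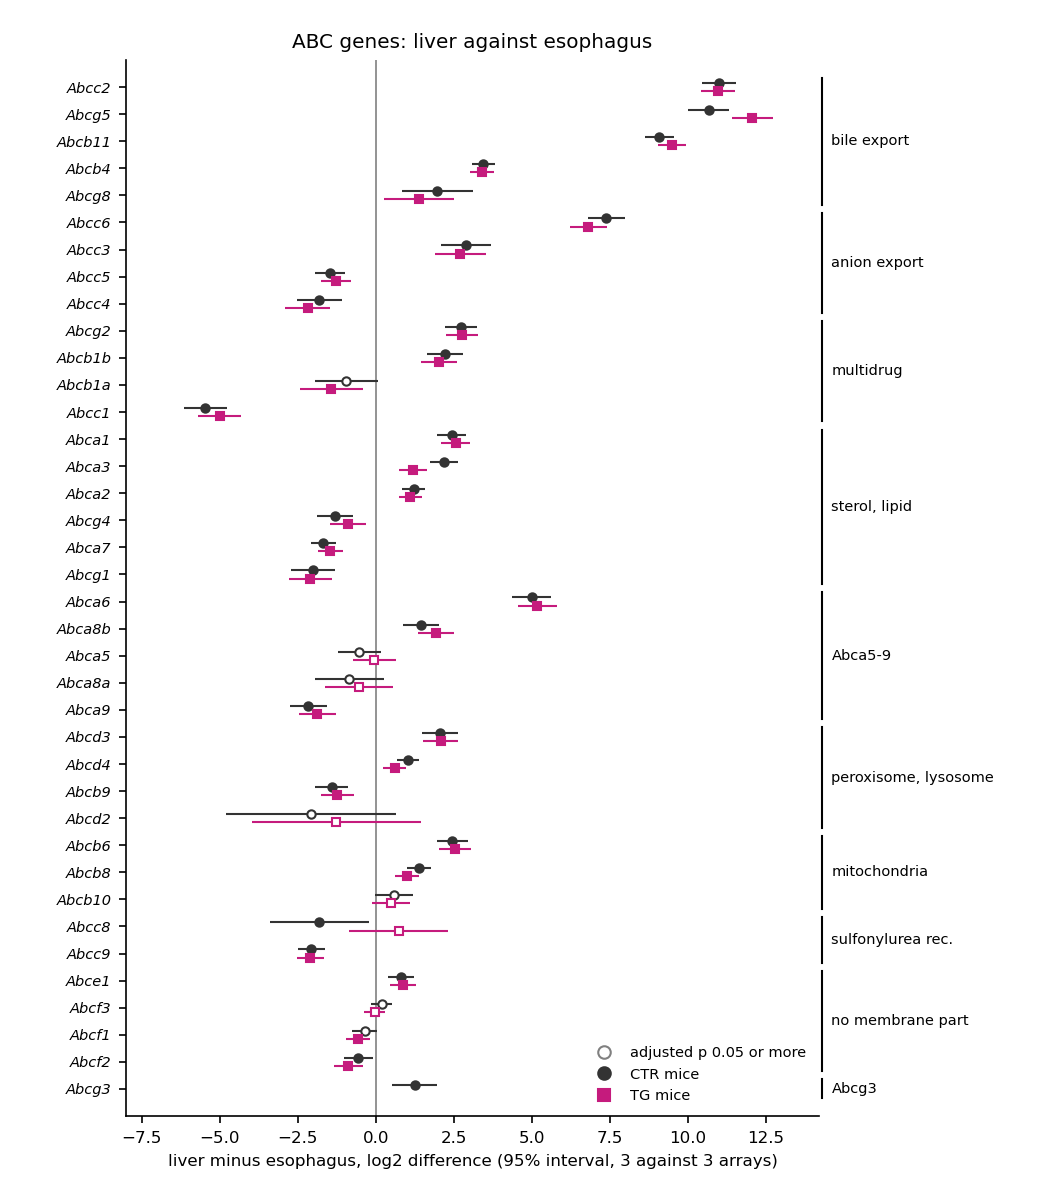
Liver minus esophagus difference on the log2 scale (x axis) for ABC genes tested, grouped by role (y axis). Circles are CTR mice and squares TG mice, with 95% intervals from 3 against 3 arrays; filled symbols passed at an adjusted p under 0.05. The bile exporters Abcc2, Abcg5 and Abcb11 lie far to the right at 9.09 or more, Abcc1 far to the left at about -5, and the circles and squares lie on the same side of 0 in the 29 genes called in both.

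The canalicular bile exporters were all higher in liver. Their upstream sequence is shown because Abcg5 and Abcg8, whose products pair to form the sterol exporter, lie head to head, and because Abcb11 and Abcc2 had large organ differences. RefSeq places 109 bases between the start sites of Abcg5 and Abcg8 (chr17:84683012-84683120, GRCm38.p6, plus strand), and the capitals mark the GATA motif AGATAA and the TATA box TATAAA, each found here as its reverse complement. For Abcb11 (chr2:69342617-69342866, minus strand) and Abcc2 (chr19:43782058-43782307, plus strand) the 250 bases before the start site are given, with capitals in Abcc2 marking CCAAT, as its reverse complement, and TGACNNNGC.
Abcg5 and Abcg8: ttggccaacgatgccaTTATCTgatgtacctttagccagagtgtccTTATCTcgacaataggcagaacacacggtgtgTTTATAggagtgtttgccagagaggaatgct
Abcb11: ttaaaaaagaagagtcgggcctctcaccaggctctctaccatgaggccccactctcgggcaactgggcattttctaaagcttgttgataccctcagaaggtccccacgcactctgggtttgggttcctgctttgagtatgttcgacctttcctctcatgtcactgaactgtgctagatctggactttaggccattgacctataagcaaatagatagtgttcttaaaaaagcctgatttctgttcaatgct
Abcc2: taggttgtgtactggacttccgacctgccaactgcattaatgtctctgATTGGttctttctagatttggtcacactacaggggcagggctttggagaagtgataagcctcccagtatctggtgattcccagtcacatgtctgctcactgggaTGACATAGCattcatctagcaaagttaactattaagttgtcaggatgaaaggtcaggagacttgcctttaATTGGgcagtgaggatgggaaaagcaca
Both strands were searched for motifs in windows from 250 bases before to 50 after each start site, of which 42 belonged to 35 members. AGATAA was in 4 of the 42 (9.52%) and in 11.2% of all 32851 windows, TATAAA in 7 (16.7%) and 13.6%, CCAAT in 15 (35.7%) and 37.4%, GGGCGG in 21 and 35.7%, and TGACNNNGC in 7 (16.7%) and 12.4%. CAAGGTCA was in the windows of Abcg2 and Abcc10 (1.56% of all windows) and CAAAGTCCA in that of Abcd3 (0.475%). The inverted repeat of GGTCA with 1 base between, and AGGTCA repeated after 1 base or after 4 bases were in no member's window, and were in 0.0396%, 0.0396% and 0.0152% of all windows. Only exact matches were counted, and sites with mismatches were not searched. By that count none of these motifs was in the bases printed for Abcb11. Those bases do hold ggccattgacc, which differs from the inverted repeat at 1 base.

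Abcb11 (NM_021022), the bile salt export pump, read 7.46, 7.49 and 7.28 in CTR livers and 7.72, 7.85 and 7.65 in TG livers. In the esophagi it read -1.94, -1.65 and -1.46 in CTR and -2.07, -1.36 and -1.82 in TG mice, above background on all 6 arrays. The organs were thus far apart, by 9.09 (SE 0.20, adjusted p = 1.38e-10) in CTR and 9.49 (SE 0.20, adjusted p = 1.08e-10) in TG mice, a 545-fold difference in CTR. Abcc2 (NM_013806), which exports bilirubin and glutathione conjugates, read 2.86, 3.46 and 3.49 in CTR livers and 3.73, 2.97 and 3.56 in TG livers, and was not well above background in any esophagus. Its signal was at least 654-fold higher in liver in CTR mice and at least 691-fold in TG mice. These bounds take for the esophagus the lowest signal of probes well above background on each array. The limma test was of the measured differences, 10.996 (adjusted p = 1.49e-10) and 10.967 (adjusted p = 1.47e-10), whose esophagus side was below background. It did not test the bounds. With normexp background and quantile normalization the difference was smaller than these bounds, at 6.29 and 6.47 on the log2 scale. Abcb4 (NM_008830), the floppase that releases phosphatidylcholine into bile, was bright in both organs. It read 6.49, 6.82 and 6.37 in CTR and 6.94, 6.70 and 6.66 in TG livers, and 3.09, 3.10 and 3.14 in CTR and 3.19, 3.39 and 3.50 in TG esophagi. The organs did not overlap, and the difference of 3.45 (SE 0.17, adjusted p = 3.26e-08) in CTR mice was 10.9-fold. Its other probe gave 3.57 in CTR and 2.95 in TG mice, where the first gave 3.40.

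Abcg5 (NM_031884) read 5.48, 5.66 and 5.72 in CTR livers and 5.70, 6.07 and 6.19 in TG livers. In CTR esophagi it read -5.44, -5.08 and -4.61, above background on all 3, and the organs differed by 10.66 (SE 0.29, adjusted p = 5.43e-10), or by 8.09 with normexp background and quantile normalization. In TG esophagi it was above background on 0 of 3 arrays, and liver was at least 3683-fold higher, while normexp background and quantile normalization gave 8.43 on the log2 scale, less than this bound. Its partner Abcg8 (NM_026180) depended on the probe. The probe that stands for it differed by 1.97 (SE 0.51, adjusted p = 0.00656) in CTR and 1.38 (SE 0.51, adjusted p = 0.0356) in TG mice, reading -2.08 to -0.76 in the livers and -4.35 to -2.00 in the esophagi. The other probe, which read -0.59 to 0.01 in the livers and -8.21 to -7.39, below background, in the esophagi, was at least 58.5-fold higher in liver in CTR and at least 50.2-fold in TG mice. Both probes were thus higher in liver in each genotype. For the first probe the difference was 3.04 and 0.40 within the 2 slides that held both CTR organs, and in TG mice its call was lost with scaling by the array median (1.08, adjusted p = 0.0907) and without liver TG1, liver TG3, esophagus TG1 or esophagus TG3.

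**Figure D2:**
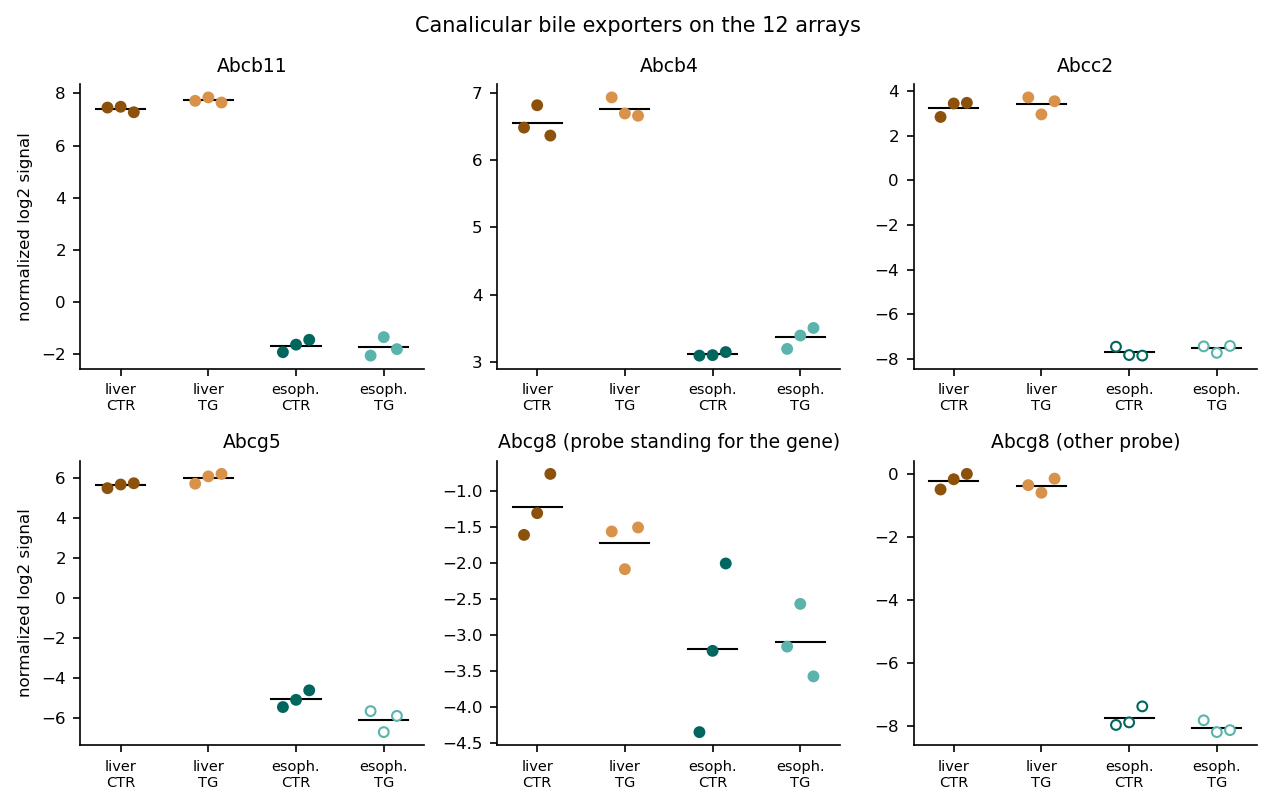
Normalized log2 signal (y axis, its own scale in each panel) of the canalicular exporters on the 12 arrays by group (x axis); points are arrays, filled where the probe was well above background, and lines are group means. Livers lie above esophagi in 5 panels, and in the panel of the Abcg8 probe that stands for the gene only within each genotype, since liver TG2 (-2.08) lies just under esophagus CTR3 (-2.00). Abcb11 is at 7.28 to 7.85 in liver and -2.07 to -1.36 in esophagus, and the 2 Abcg8 probes differ in the esophagus, one measured and one not above background.

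Exporters of organic anions at the blood side of the cell moved both ways. Abcc6 (NM_018795), a liver transporter whose loss leads to calcified connective tissue, read 0.21, 0.94 and 1.05 in CTR and 0.50, -0.18 and 0.13 in TG livers. It was not above background in any esophagus, so liver was at least 113-fold higher in CTR and at least 71.4-fold in TG mice. The limma test was of the measured differences, 7.39 and 6.81 (adjusted p = 4.24e-09 and 7.38e-09), and not of these bounds. With normexp background and quantile normalization the Abcc6 difference was under these bounds, at 4.12 and 3.55 on the log2 scale. Abcc3 (NM_029600), the basolateral exporter of glucuronides, read 3.90, 5.0 and 5.0 in CTR and 5.0, 4.04 and 5.0 in TG livers, and 1.57 to 2.42 in the esophagi. Its difference was 2.90 (SE 0.37) in CTR and 2.72 (SE 0.37) in TG mice, and 1.38 and 1.43 by its other probe, with 1.90 in CTR mice within 1 of the slides. Abcc4 (NM_001033336), which exports cyclic nucleotides and bile acids, went the other way. It read -1.72, -0.18 and -0.78 in CTR and -0.87, -1.29 and -0.76 in TG livers, all under the esophagi at 0.76 to 1.27, with differences of -1.81 (SE 0.33) and -2.18 (SE 0.33), and -0.93 and -2.83 within the slides in CTR mice. Abcc5 (NM_013790), a cyclic nucleotide exporter, was also lower in liver, by -1.47 (SE 0.22) and -1.28 (SE 0.22).

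Among the multidrug exporters, Abcc1 (NM_008576), which pumps out glutathione conjugates and drugs, had the largest fall of the family from esophagus to liver in both genotypes by the probe that stands for each gene. It read -2.67, -3.0 and -3.0 in CTR and -3.43, -2.54 and -1.96 in TG livers, and 2.67, 2.54 and 2.48 in CTR and 2.46, 2.07 and 2.56 in TG esophagi. The difference was -5.45 (SE 0.32, adjusted p = 1.37e-07), a 43.8-fold lower signal in CTR liver, and -5.00 (SE 0.32, adjusted p = 2.75e-07) in TG mice, and its other probes gave -4.85 and -4.08 in CTR mice, each above background on 2 of 3 CTR livers. Abcc1 thus stood opposite to Abcc2, its canalicular counterpart. Abcg2 (NM_011920), an exporter of urate and xenobiotics, was higher in liver by 2.73 (SE 0.23) in CTR and 2.75 (SE 0.23) in TG mice, with livers at 3.81 to 4.63 and esophagi at 1.08 to 1.70, and its other probe gave 2.42 in CTR mice.

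The rodent P-glycoproteins, Abcb1a and Abcb1b, neighbour each other and Abcb4 on the chromosome, and their probes disagreed. The probe that stands for Abcb1b (NM_011075) read 1.75, 2.46 and 1.71 in CTR and 2.31, 1.68 and 1.39 in TG livers against -0.33 to -0.12 in the esophagi, a difference of 2.21 (SE 0.26, adjusted p = 3.03e-05) in CTR and 2.02 (SE 0.26, adjusted p = 6.19e-05) in TG mice. A further probe of the same accession read -1.16, -2.17 and -1.79 in CTR and -2.05, -1.52 and -2.14 in TG livers against -0.09 to 0.33 in the esophagi. That probe was lower in liver by -1.70 (SE 0.26, adjusted p = 0.000227) in CTR and -2.02 (SE 0.26, adjusted p = 6.99e-05) in TG mice, so the direction for Abcb1b depends on the probe, with both directions called. The remaining probe differed by -0.72 (SE 1.07) in CTR mice and did not pass; liver TG3 alone of the TG livers was above background, at -2.25. Abcb1a (NM_011076) differed by -0.95 (SE 0.45, adjusted p = 0.0915) in CTR mice, with 1 of 3 livers above background, and by -1.43 (SE 0.45, adjusted p = 0.0182) in TG mice, where the livers were not above background and liver was at least 1.98-fold lower. That call was lost with a common floor and without liver TG1, liver TG2 or esophagus TG2. Whether the probes of these related genes share transcripts was not tested, and how alike the genes are was not computed.

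**Figure D3:**
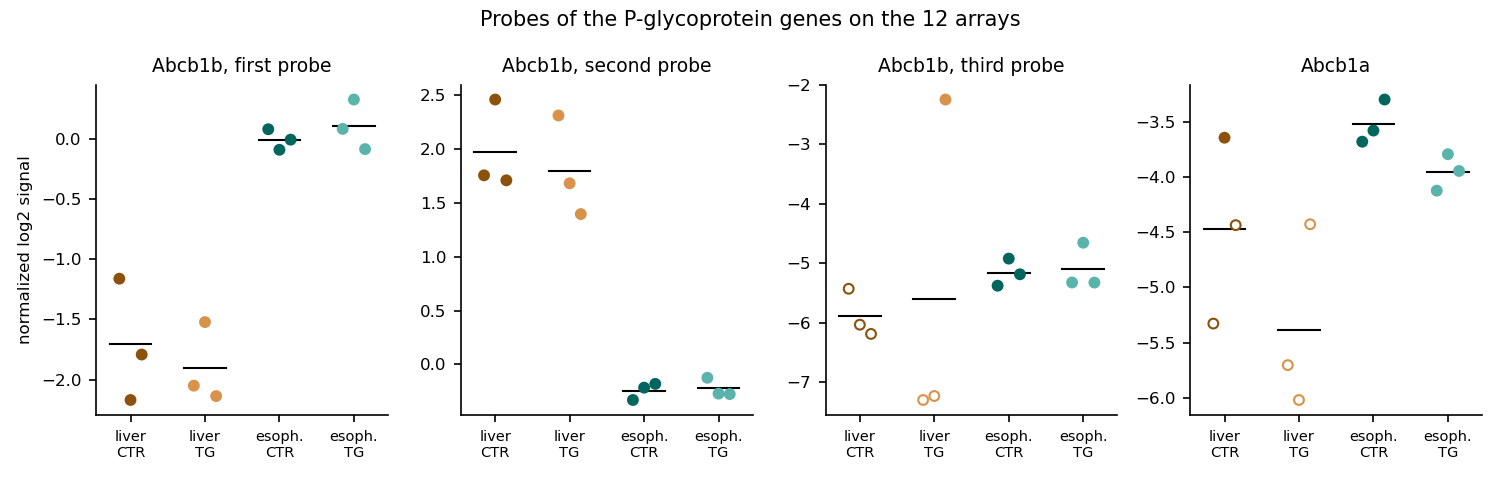
Normalized log2 signal (y axis, its own scale in each panel) of the 3 Abcb1b probes and the Abcb1a probe on the 12 arrays by group (x axis); points are arrays, filled where above background, and lines are group means. In the first panel livers lie below esophagi and in the second above them, the 2 directions called for Abcb1b.

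Probes of a gene agreed more often than not. Of the 18 members with 2 or more probes tested in CTR mice, 13 had probes within 1 log2 unit of each other in the organ difference. The 5 others were Abcg8, Abcb1b, Abcc3, Abcc1 and Abce1, and Abcb1b alone of the 18 had probes of opposite sign. No such count was made in TG mice. Abce1 (NM_015751), which splits ribosomes after translation, was higher in liver by 0.80 (SE 0.19) with 1 probe and by 1.81 (SE 0.43) with the other in CTR mice.

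Of the exporters of sterols and phospholipids, 6 of 8 were tested, and 3 were higher and 3 lower in liver in each genotype. Abca1 (NM_013454), which loads cholesterol onto apolipoprotein A-I, read 3.37, 3.48 and 3.66 in CTR and 3.65, 3.49 and 3.58 in TG livers and 0.79 to 1.41 in the esophagi. It was higher in liver by 2.43 (SE 0.21, adjusted p = 3e-06) in CTR and 2.56 (SE 0.21) in TG mice. Abcg1 (NM_009593), which passes cholesterol to mature lipoprotein particles, was lower in liver by -2.01 (SE 0.31) and -2.09 (SE 0.32), with esophagi at 1.70 to 2.32 and livers at -1.0 to 0.28. The 2 exporters of one pathway thus differed in direction between the organs. Abca7 (NM_013850), a relative of Abca1, was lower in liver by -1.67 (SE 0.18) and -1.46 (SE 0.18). Abcg4 (NM_138955), a relative of Abcg1 known from the brain, was lower by -1.30 (SE 0.26) and -0.89 (SE 0.26), a call lost in TG mice without esophagus TG1. It was above background on 2 of 3 CTR livers, and with normexp background and quantile normalization the CTR difference was -0.64. Abca2 (NM_007379), of lysosomal membranes, was higher by 1.21 (SE 0.17) and 1.11 (SE 0.17), with its other probe at 1.30 in CTR mice. Abca3 (NM_013855), which fills the lamellar bodies of the lung with surfactant lipid, was higher in liver by 2.19 (SE 0.20, adjusted p = 5.04e-06) in CTR and 1.20 (SE 0.20, adjusted p = 0.000434) in TG mice.

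The genes Abca8b, Abca8a, Abca9, Abca6 and Abca5 follow each other on the chromosome in this order and did not share a direction. Abca6 (NM_147218) read 2.20, 2.90 and 2.56 in CTR and 2.56, 2.00 and 2.44 in TG livers and -3.29 to -2.08 in the esophagi, a difference of 5.0 (SE 0.28, adjusted p = 1.14e-07), or 32.1-fold, in CTR and 5.17 (SE 0.28) in TG mice. Its neighbour Abca9 (NM_147220) read -3.95, -3.65 and -3.36 in CTR and -3.77, -3.33 and -2.91 in TG livers and -1.91 to -1.11 in the esophagi, and was lower in liver by -2.16 (SE 0.27, adjusted p = 4.96e-05), or -1.35 with normexp background and quantile normalization, and -1.87 (SE 0.27). Adjacent genes thus lay on opposite sides, and on neither side did the organs overlap. Abca8b (NM_013851) was higher in liver by 1.45 (SE 0.26) and 1.93 (SE 0.26). Abca8a (NM_153145) at -0.84 (SE 0.49) and Abca5 (NM_147219) at -0.52 (SE 0.31) did not pass in CTR mice, nor did they in TG mice at -0.54 and -0.05. These genes are close relatives, and reads of one by the probe of another were not tested.

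Transporters of peroxisomes and lysosomes, each built from a pair of subunits, were partly higher in liver. Abcd3 (NM_008991), the abundant peroxisomal protein that takes up branched fatty acids and bile acid precursors, read 6.57, 7.35 and 7.17 in CTR and 7.23, 6.79 and 7.27 in TG livers and 4.62 to 5.24 in the esophagi, a difference of 2.05 (SE 0.26) and 2.08 (SE 0.26), and its other probes gave 1.64 or more in CTR mice. Abcd4 (NM_008992), which lets vitamin B12 out of lysosomes, was higher by 1.04 (SE 0.16) and 0.60 (SE 0.16). The call in TG mice was lost with scaling by the array median and with the slide as a fixed block. Abcd2, a peroxisomal carrier of very long fatty acids, split the livers. It read -7.20, -2.62 and -5.99 in CTR and -3.0, -7.31 and -3.41 in TG livers, so that liver CTR2, TG1 and TG3 lay near the esophagi, at -3.59 to -2.92, and the 3 others below background. Abcb9 (NM_019875), a lysosomal peptide transporter, was lower in liver by -1.41 (SE 0.24) and -1.24 (SE 0.24).

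Of the mitochondrial transporters, Abcb6 (NM_023732), which carries porphyrins, was higher in liver by 2.46 (SE 0.23) and 2.54 (SE 0.23), with livers at 3.01 to 3.72 and esophagi at 0.66 to 1.16. Abcb8 (NM_029020) was higher by 1.40 (SE 0.17) and 0.99 (SE 0.17), the latter lost with scaling by the array median, and Abcb10, needed in red cell precursors for heme synthesis, differed by 0.59 (SE 0.27) and 0.50 (SE 0.27) and did not pass. With the animal as a block, Abcb10 passed in CTR mice. The sulfonylurea receptors are regulatory subunits of ATP-sensitive potassium channels. Abcc9 (NM_021041), the form of smooth and cardiac muscle, was lower in liver by -2.06 (SE 0.20, adjusted p = 6.32e-06) and -2.10 (SE 0.20), and its 3 probes gave -1.92 to -2.25 in CTR mice. Abcc8, the form of pancreatic beta cells, read -3.14, -2.97 and -5.09 in CTR and -3.01, -2.45 and -1.97 in TG livers, and -0.58, -3.21 and -2.00 in CTR and -3.62, -3.59 and -2.43 in TG esophagi. The groups overlap, and its difference of -1.80 (SE 0.72, adjusted p = 0.0478) in CTR mice kept the call in 11 of 20 alternative settings. The call was lost without liver CTR3, esophagus CTR1 or esophagus CTR3. A common floor for dim values, no filter on dim probes and only the compared arrays ended it too. Only 2 of 3 CTR livers were above background, and CTR1 was the esophagus with the highest heart muscle and airway markers, whose levels are given further on.

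The members with no membrane part act in translation. Abcf2 (NM_013853) differed by -0.56 (SE 0.21, adjusted p = 0.0364) in CTR and by -0.87 (SE 0.21, adjusted p = 0.0039) in TG mice. The CTR call was kept in 8 of 20 alternative settings. It was lost with the animal as a block and without any of the esophagi, liver CTR1 or liver CTR2. Scaling by the array median, the slide as a fixed block, no filter on dim probes and only the compared arrays ended it too. Abcf1 (NM_013854), a factor of translation initiation, was lower in liver in TG mice by -0.57 (SE 0.18, adjusted p = 0.016). That call was lost without liver TG2, with the slide as a fixed block and without both esophagus arrays of replicate number 1. At -0.36 (SE 0.18) in CTR mice Abcf1 did not pass. Its other probe differed by -0.96 in CTR mice. In TG mice that probe read -0.52, -1.66 and -1.38 in the livers and 1.00, 0.93 and 0.81 in the esophagi. Abcf3 was at 0.19 (SE 0.15) and -0.03 (SE 0.15). Abcg3 (NM_030239), a rodent gene, was higher in CTR liver by 1.24 (SE 0.33, adjusted p = 0.00747), with 2 of 3 of those livers above background. That call was lost with a common floor for dim values, with normexp background and quantile normalization and in the authors' deposited values. It could not be tested where both groups had to be above background.

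Genes that work with these transporters were counted from lists, in CTR mice, beside 34.6% of all units higher and 27.8% lower in liver, with a median of 0.14. Of 15 nuclear receptors and other regulators of the family, all tested, 12 were higher and 2 lower in liver, with a median difference of 4.60. They include Nr1h4 (8.59, SE 0.21), the bile acid receptor known to activate Abcb11, Ppara (4.60, SE 0.22) and Nr1h3 (3.50, SE 0.16), an oxysterol receptor. Of 10 scaffold and traffic proteins of the canalicular membrane 4 were higher and 2 lower, with a median of 0.50. Pdzk1 (8.88, SE 0.20), a scaffold, and Tmem30a (1.91, SE 0.22), a flippase subunit, were higher, and Ezr (-5.62, SE 0.26), a membrane linker, and Rab11a (-1.59, SE 0.20), of recycling endosomes, were lower. All 8 genes of peroxisomal fatty acid oxidation, the process that Abcd3 supplies, were higher (median 2.73), with Scp2 (4.38, SE 0.16), Hsd17b4 (2.85, SE 0.20) and Ehhadh (5.77, SE 0.43) among them.

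Of 11 genes of cholesterol efflux 7 were higher and 2 lower (median 3.75). Apoa1 (12.96, SE 0.37), the acceptor of Abca1, and Apoe (4.48, SE 0.19) were higher, as was Soat2 (6.56, SE 0.42), above background on 1 of 3 esophagi. Lcat, which esterifies the cholesterol, was above background in no CTR esophagus and at least 986-fold higher in liver. Of 8 genes of skin barrier lipids, a process of stratified epithelia, 0 were higher and 7 lower in liver (median -1.54). Among these were Cyp4f39 (-3.56, SE 0.39) and, above background in no CTR liver, Elovl4, at least 201-fold lower, and Aloxe3, at least 164-fold lower, which make barrier lipids. Both potassium channel pores that pair with sulfonylurea receptors were lower, Kcnj8 by -1.58 (SE 0.19) and Kcnj11 by -5.03 (SE 1.17), above background on 2 of 3 livers. Of the ABC proteins with other names, Tap1, a peptide transporter of antigen presentation, was higher by 1.39 (SE 0.22), Tap2 at 0.44 (SE 0.22) did not pass, and Cftr was not tested.

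Between TG and CTR mice no member passed in either organ. In esophagus 37 members were tested and 0 passed, where 0 of 23211 units passed (0%, with 923 at an unadjusted p under 0.05 and the smallest adjusted p at 0.137). In liver 36 were tested and 0 passed, where 0 of 21252 units passed (0%, with 1769 at an unadjusted p under 0.05 and the smallest adjusted p at 0.556). Without livers TG1 and CTR1 0.532% of all units passed, and 0 members. For the esophagus difference minus the liver difference 39 were tested and 0 passed of 24442 units (0%, with 1216 at an unadjusted p under 0.05 and the smallest adjusted p at 0.943). At an unadjusted p under 0.05 there were 1, 3 and 3 members. The median TG-minus-CTR difference of the members was -0.06 in esophagus, beside -0.00341 for all units, and 0.03 in liver, beside 0.13.

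**Figure D4:**
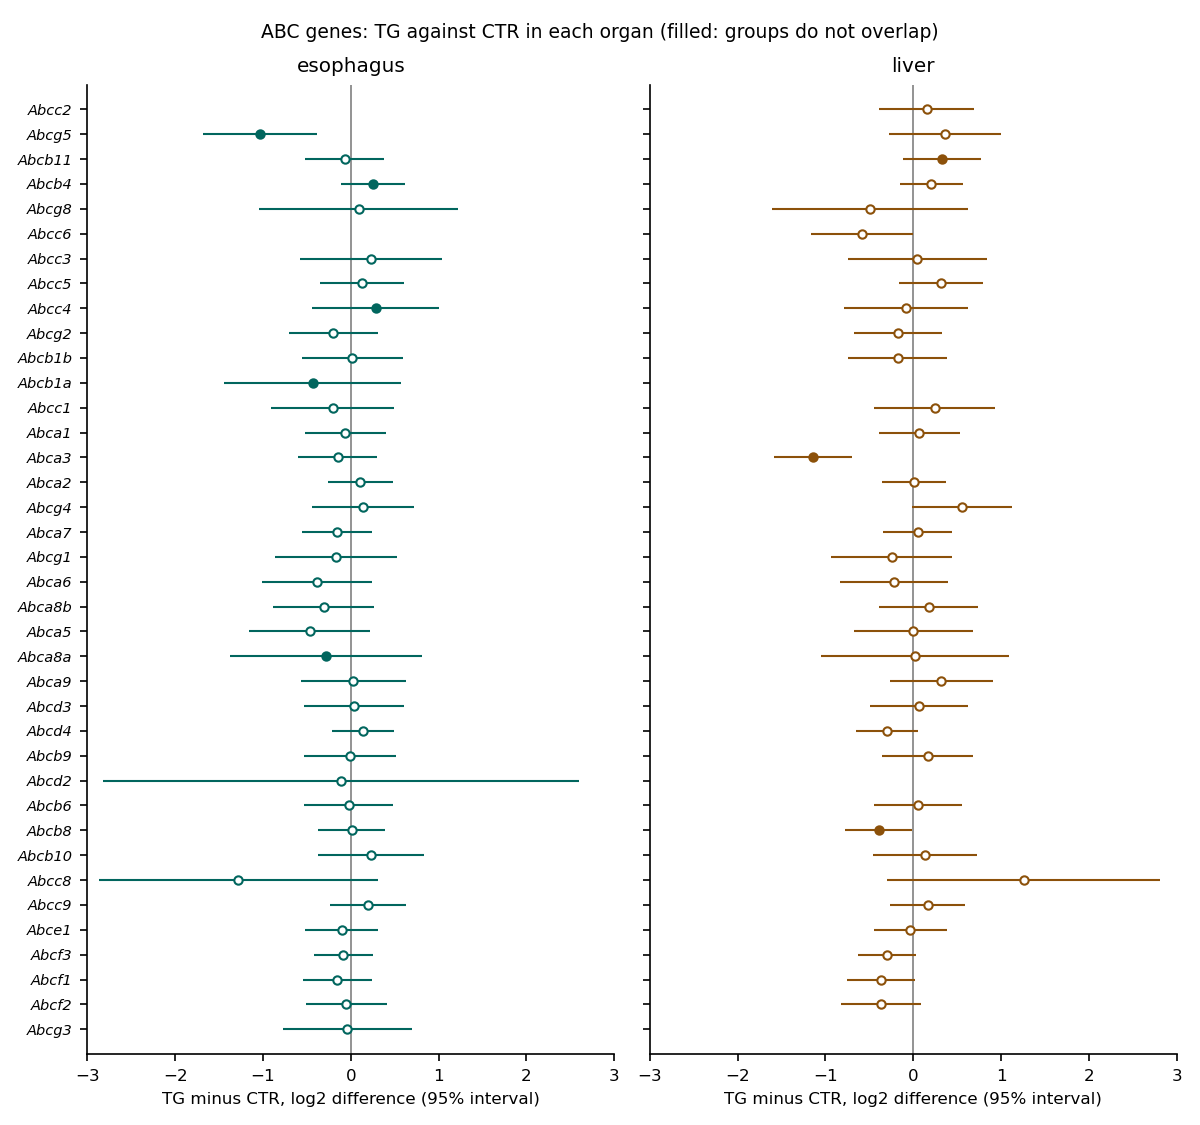
TG minus CTR difference on the log2 scale (x axis) with its 95% interval for ABC genes tested (y axis) in esophagus (left) and liver (right), 3 against 3 arrays; filled points are genes whose 2 groups do not overlap. Most intervals cross 0, and those of Abcg5 in esophagus (-1.03) and of Abca3 (-1.14), Abcc6 (-0.58) and Abcb8 (-0.39) in liver do not, although no gene passed after adjustment over all units.

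Abca3 stood at -1.14 (SE 0.20, 95% interval of 0.44 to either side) in liver, with an unadjusted p of 0.000157 that ranked 6 among 21252 units and an adjusted p of 0.556 (limma). The probe that stands for it read 1.56, 1.66 and 1.75 in TG livers and 2.80, 2.96 and 2.62 in CTR livers. Its second probe read 0.34, -0.07 and -0.32 in TG and 1.40, 1.72 and 1.37 in CTR livers, a difference of -1.51 (SE 0.19, adjusted p = 0.173 over all probes). On both probes all TG livers lay below all CTR livers, while the dim remaining probe overlapped at 0.25 (SE 0.45). In esophagus Abca3 read 0.45, 0.70 and 0.22 in TG and 0.57, 0.29 and 0.95 in CTR mice, and the groups overlapped at -0.15 (SE 0.20). The esophagus-minus-liver difference of 0.99 (SE 0.29) did not pass (adjusted p = 0.943).

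Within the slide that held a liver of each genotype Abca3 was at -1.21, and leaving out 1 liver at a time gave -1.22 to -1.05. Without livers TG1 and CTR1 together it was -1.09 (SE 0.26, adjusted p = 0.0926). Over 12 other settings, this one among them, the value ran from -1.41 to -0.89 and the adjusted p from 0.0926 to 0.846. Airway and alveolar markers, the cell types best known for Abca3, had summed levels of -0.29 to 0.74 in TG livers and -0.81 to 0.10 in CTR livers, highest on TG3. Abca17, which neighbours Abca3, was above background only on liver TG3 and CTR3.

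The other members with small p in liver did not pass either. Abcb8 was at -0.39 (SE 0.17, unadjusted p = 0.0444), with TG livers at 0.41, 0.30 and 0.00 below CTR livers at 0.64, 0.57 and 0.69. Abcc6 was at -0.58 (SE 0.26, unadjusted p = 0.0497) and, without livers TG1 and CTR1, at -1.02 (SE 0.23, adjusted p = 0.0857). Abcf1 was at -0.37 (SE 0.17), and at -0.56 without livers TG1 and CTR1. Its other probe, above background on all 12 arrays, lay further apart between the genotypes, though the groups overlapped. That probe read -0.52, -1.66 and -1.38 in TG livers and -0.74, 0.28 and 0.93 in CTR livers. With scaling by the array median Abcb8 was at -0.67 and Abcf1 at -0.64. Of those above 0, Abcg4 at 0.55 (SE 0.26) turned to -0.0223 with normexp background and quantile normalization. Abcc8 was at 1.26 (SE 0.70), at 0.58 without liver CTR3 and at 1.82 without livers TG1 and CTR1. Abcb11 was at 0.33 (SE 0.20), and at 0.06 with scaling by the array median. Abcc5 was at 0.32 (SE 0.22), and at 0.04 with that scaling. It was at 0.12 without liver CTR2, 0.53 without liver CTR1 and 0.49 without livers TG1 and CTR1. The groups did not overlap in liver for Abca3 and Abcb8, lower in TG, and for Abcb11, higher in TG, 3 of 36 members beside 11.3% of all units tested (2.87% lower and 8.42% higher).

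In esophagus the smallest p belonged to Abcg5 at -1.03 (SE 0.29, unadjusted p = 0.00536, adjusted p = 1), ranked 117 among 23211 units. It read -5.65, -6.69 and -5.89 in TG esophagi, none above background, and -5.44, -5.08 and -4.61 in CTR esophagi, all above background. The groups did not overlap, signal was at least 1.76-fold lower in TG, with a common floor for dim values the difference was 0, and with normexp background and quantile normalization it was -0.18. Hepatocyte markers moved with it, with summed levels of -0.36 to -0.08 in TG and 0.28 to 1.04 in CTR esophagi, above background for 5 or 6 of 8 markers in TG and 7 in CTR, and their part in the result was not tested. Without esophagi TG1 and CTR1 Abcg5 was at -1.44 (SE 0.32), and within the slide that held both genotypes at -0.56. In liver it was at 0.37 (SE 0.29), and the esophagus-minus-liver difference of -1.40 (SE 0.42) did not pass (adjusted p = 0.943).

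Abcc8 was at -1.28 (SE 0.72) in esophagus, at -0.61 without esophagus CTR1, which had read -0.58, and at -0.40 without esophagi TG1 and CTR1. Summed heart muscle markers, 8 of 8 above background on each esophagus, stood at 7.69, 4.31 and 6.15 in CTR and at 3.42 to 3.52 in TG esophagi. Airway and alveolar markers stood at 8.02, 4.87 and 5.63 in CTR and at -0.03, 6.83 and 0.93 in TG esophagi, with 4 to 8 of 8 above background. Their part in the Abcc8 values was not tested. Its esophagus-minus-liver difference was -2.54 (SE 1.01, unadjusted p = 0.0306), and -1.66 without those esophagi. Abca5 at -0.47 (SE 0.31) and Abca6 at -0.39 (SE 0.28) followed. Without esophagus TG1 they were at -0.26 and -0.16, Abca5 was at -0.75 without esophagus TG3, and Abca6 was at -0.20 without esophagus CTR3. Of those above 0 were Abcb4 at 0.25 (SE 0.17), Abcc4 at 0.29 (SE 0.33), Abcc9 at 0.20 (SE 0.20), or 0.08 without esophagus CTR1 and -0.05 within the slide that held both genotypes, and Abcd4 at 0.14 (SE 0.16), or 0.07 without esophagus TG1 and 0.22 without esophagus TG2. In esophagus the groups did not overlap for Abcb4 and Abcc4, higher in TG, and for Abcg5, Abcb1a and Abca8a, lower in TG, 5 of 37 members beside 12.5% of all units tested (6.32% higher and 6.13% lower). For the difference between organs Abcd4 was at 0.43 (SE 0.23), Abcb8 at 0.40 (SE 0.25), Abcc6 at 0.59 (SE 0.38), Abcb11 at -0.40 (SE 0.29), or -0.24 without esophagus TG1, and Abca8b at -0.49 (SE 0.37), or -0.18 without liver TG1, and none passed.

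Livers also differed among themselves across genotypes, a pattern noticed in the data and given as a description. Livers CTR1 and TG2, the pair low in Per2, were the 2 lowest livers for 12 of the 34 members that were above background on all 6 livers (35.3%), beside 13.4% of 18074 units. They were Abca5, Abca6, Abca8a, Abcb6, Abcb9, Abcc2, Abcc3, Abcc4, Abcd3, Abcf2, Abcg2 and Abcg8. They were the 2 highest for 1 member, Abce1, beside 12.6% of units. Abcc3 had one of the wider gaps, with 3.90 and 4.04 on this pair and 5.0 on each of the 4 other livers. Ciart, a repressor of the clock, read -3.83 and -4.30 on the pair and 0.24 to 0.44 on the others. Cholangiocyte markers had summed levels of 4.63 and 4.46 on the pair and 3.64 to 4.01 on the others. Red blood cell markers stood at 6.82 and 6.22 on the pair and at 7.17 to 7.54 on the others. Hepatocyte markers, at 11.8 on CTR1 and 12.2 on TG2, did not set the pair apart. The parts of the clock and of cell content in the members' levels were not tested.

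**Figure D5:**
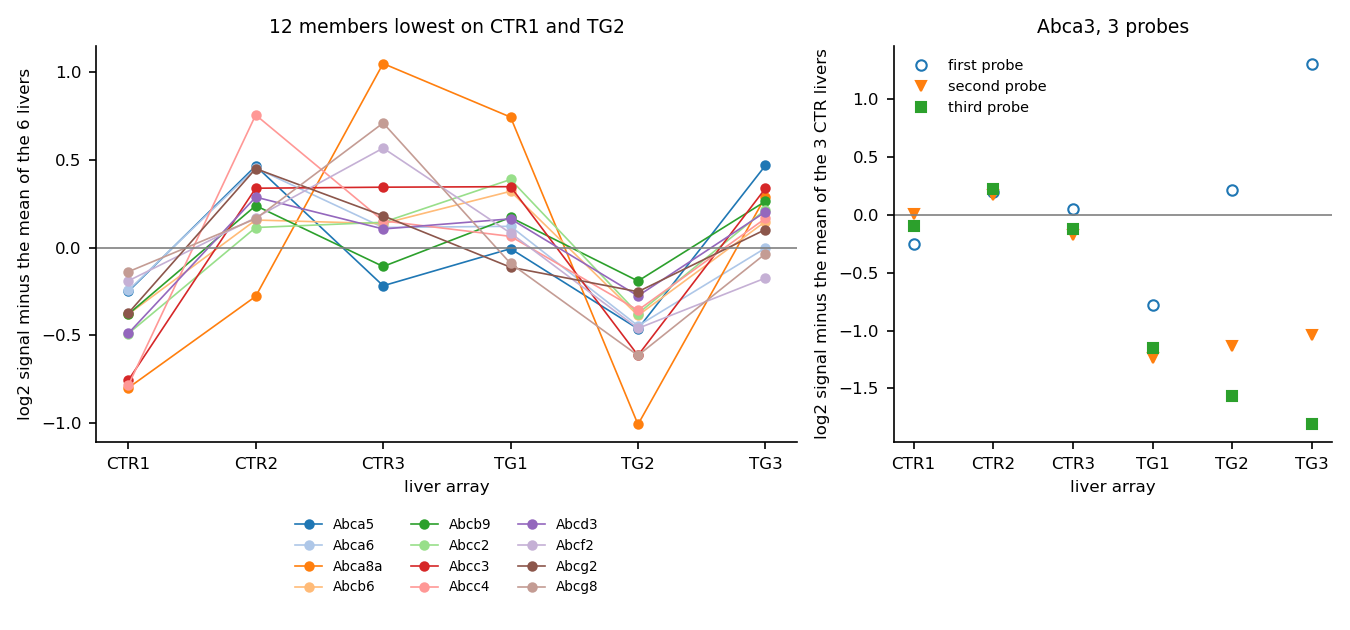
Left, log2 signal minus the mean of the 6 livers (y axis) for the 12 members whose 2 lowest livers were CTR1 and TG2, by liver array (x axis); these genes were picked for this order. Right, the 3 Abca3 probes relative to the mean of the CTR livers (y axis), where the triangles and squares (the bright probes, at -1.14 and -1.51 on average) lie below 0 on all TG livers and the open circles (the dim probe) overlap.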

How the data were processed

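The authors deposited 1 scanner file per array with spot intensity on a linear scale, made by Agilent Feature Extraction 10.7.1.1 per the file headers, with background subtracted within each array and no scaling between arrays. They also deposited log2 values of the same arrays; its columns have medians of 7.27 and correlated at 0.9999 or more with normexp and quantile values. limma is named per the submitters' processing notes. The sources used here do not give how the background was treated for those values.

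Control and outlier spots were left out (1311 outlier spots; 0 saturated), and spots of a probe were averaged. Probes were named by RefSeq accession (RefSeq genes of GRCm38.p6, with 23374 probes named and 17800 not), and promoter sequences are RefSeq's of that build. The processed signal was taken to log2 and each array's 75th percentile subtracted. The unit was a named gene, by its probe of highest mean over the 12 arrays, or an unnamed probe; it entered a test where that probe was above background on all 3 arrays of either group. limma 3.58.1 (R 4.3.3) was fitted with 4 groups, 12 arrays, 8 residual degrees of freedom and two-sided tests, adjusted by Benjamini-Hochberg over all units tested. The procedure was run on simulated data for liver TG against CTR only, with independent noise and no slide or animal effects. Its outcome is not given here. Other software was data.table (version 1.17.8), jsonlite 2.0.0, Python 3.11.15, pandas 2.3.3 and matplotlib 3.10.9. A bound ("at least") sets a dim probe at the lowest signal of probes well above background on its array, or at its own signal where that was higher. Bounds were computed with this processing only. With normexp background and quantile normalization the differences of Abcc2, Abcc6 and Abcg5 fell under theirs, and the other bounds were not recomputed. The normexp alternative used the median signals. The number of arrays limits the precision, and 3 mice per genotype were separate animals.

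The members, the lists of partner and marker genes and the rule for naming were chosen with earlier results of these data known. The rule names the 5 canalicular exporters, up to 12 members per direction called in both genotypes, the 4 smallest p per direction where no member passed, members whose probes disagree, and 4 genes of each partner list; other members were named after their values were seen. Same-numbered organs within a genotype are of 1 animal per the labels, with deviations correlating at -0.04 to 0.19 over 17222 units, and the animal was a block in an alternative fit. Alternatives changed scaling, background, filter, floor, probe rule, slide block, replicate block and the arrays used. Some genes counted among the members and lists are not reported here by name.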

Additional observations from a re-analysis of the deposited data

How the results depend on the processing

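The counts of members called between organs were 26 to 33 in CTR mice and 27 to 33 in TG mice over the settings tried, except that counting every probe on its own gave 49 of 62 probes in CTR and 52 of 61 in TG mice, where the unit and not the call changed. Leaving out 1 array at a time gave 29 to 32 in CTR mice and 29 to 31 in TG mice, and 0 in the 3 comparisons of genotype, as did each other setting. Without both esophagus arrays of replicate number 1, chosen after seeing the data, the counts were 29 and 29, and without both liver arrays of that number 30 and 30. Of the 31 members called in CTR mice 25 kept the call in all 20 settings, and of the 31 in TG mice 21. Those that lost it besides the cases given above were Abcc2, Abcc6 and Abcg4 in CTR and Abcc2, Abcc6 and Abcg5 in TG mice, not testable where both groups must be above background, and Abce1 in TG mice with the array median. With the replicate block, which pairs the organs of an animal and, between genotypes, animals that share only a number, 31 members were called in each organ comparison (21 higher and 10 lower in CTR, 19 and 12 in TG) and 0 in the others; apart from Abcf2 and Abcb10 it changed no call. Abcg4 in liver turned from 0.55 to -0.000315 with quantile normalization, -0.0223 with normexp and quantile normalization and -0.0219 in the authors' deposited table, and the cause was not tested. Scaling moved the median of all units in TG mice between organs from 0.36 to 0.06 with the array median, and that between genotypes in liver from 0.13 to -0.15. With 3 arrays per group, signals near background limit Abcc2, Abcc6, Abcg5, Abcb1a, Abcc8 and Abcd2 among others.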
